A study of Mus musculus with 8 samples.

Results

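The genes described here are the metallothioneins Mt1 and Mt2 and the zinc transporters Slc30a1, Slc30a10, Slc39a4 and Slc39a5, measured in wild-type (WT) and cancer cells of mouse small intestinal organoids. The 6 genes were chosen by name from the 13420 genes of the read count table, all 6 were listed, and they were chosen with the lower Mt2 of mixed WT cells already known. WT organoids came from C57BL/6 mice carrying mTmG, a reporter that marks the cell membrane with tdTomato. Cancer organoids came from C57BL/6 (F6) mice carrying alleles that include Villin-CreERT2, Apc fl/fl and Tr53 fl/R172H, and were labelled with Dendra2. Villin-CreERT2 restricts the recombination of these alleles to the intestinal epithelium. Each population was grown either alone or as a mix of 2 parts WT and 1 part cancer cells, all in medium with EGF, Noggin, R-spondin1 and N-acetylcysteine for which the labels list no metal supplement, and living cells were sorted on day 3 after mixing. The wells of the libraries name them, 2 in each of 4 groups. Libraries A01 and A05 are pure WT, A02 and A06 mixed WT, A03 and A07 pure cancer, and A04 and A08 mixed cancer cells. The labels give neither the age of the mice nor whether the libraries of a group came from separate cultures or from 1 organoid line, so the tests measure the spread between libraries, which may be technical.

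Metallothioneins are small, cysteine-rich proteins that bind zinc and copper in the cytosol and buffer the free metal. Their genes are switched on by Mtf1, a zinc-sensing transcription factor that binds metal response elements in their promoters, and also by stress and glucocorticoids. Transporters of the Slc39 family bring zinc into the cytosol, transporters of the Slc30 family remove metal from it, and in the small intestine they carry dietary zinc across the epithelium.

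Mt1 and Mt2 lie next to each other on the plus strand of chromosome 8, and in GRCm38 (GENCODE vM21) Mt2 spans positions 94172664 to 94173568 and Mt1 positions 94179082 to 94180327. Their starts are 6418 bases apart, and Mt2 overlaps the antisense gene Gm45774. The promoter windows of RefSeq (GRCm38.p6, 250 bases before to 50 bases after a start) held 5 of the 6 genes, all except Slc39a4, and those of Mt1, Mt2 and the zinc exporter gene Slc30a1 are printed because these are the classical targets of Mtf1. Capitals mark each match to the core of the metal response element, TGCACNC or TGCGCNC, on either strand, and the windows are written along the strand of the gene.
Mt1, chr8:94178839-94179138, plus strand: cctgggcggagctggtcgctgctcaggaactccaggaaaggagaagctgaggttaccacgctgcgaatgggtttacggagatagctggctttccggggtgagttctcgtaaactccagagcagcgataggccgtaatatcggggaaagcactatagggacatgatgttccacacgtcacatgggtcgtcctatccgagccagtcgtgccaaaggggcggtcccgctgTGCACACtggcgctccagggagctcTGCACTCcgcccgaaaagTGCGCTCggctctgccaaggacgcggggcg
Mt2, chr8:94172368-94172667, plus strand: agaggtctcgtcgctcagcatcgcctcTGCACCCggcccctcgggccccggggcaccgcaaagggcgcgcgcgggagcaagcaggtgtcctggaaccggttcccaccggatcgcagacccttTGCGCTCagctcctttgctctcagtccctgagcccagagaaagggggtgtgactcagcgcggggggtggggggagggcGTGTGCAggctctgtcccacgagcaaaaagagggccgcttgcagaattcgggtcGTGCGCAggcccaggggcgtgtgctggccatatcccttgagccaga
Slc30a1, chr1:191906531-191906830, plus strand: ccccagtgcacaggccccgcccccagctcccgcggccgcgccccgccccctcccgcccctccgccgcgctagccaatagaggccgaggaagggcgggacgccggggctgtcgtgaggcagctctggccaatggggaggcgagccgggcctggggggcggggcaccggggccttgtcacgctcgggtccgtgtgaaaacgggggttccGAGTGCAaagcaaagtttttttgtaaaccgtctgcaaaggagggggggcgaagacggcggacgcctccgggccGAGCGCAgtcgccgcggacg
Positions are counted from the RefSeq start, which lies 7 bases after the GENCODE start for Mt1, 46 bases before it for Mt2 and 14 bases after it for Slc30a1. The Mt1 window held 3 matches, of which 1 began 23 bases before the RefSeq start and 2 lay after it. Sequence farther than 50 bases after that start was not searched, and other starts of Mt1 were not examined. The Mt2 window held 4 matches, of which 3 began 223, 128 and 50 bases before the start and 1 lay after it, and all 4 lay before the GENCODE start. The Slc30a1 window held 2 matches. Of 32851 promoter windows of the same length, 7.11% held at least 2 matches, 1.97% at least 3 and 0.517% at least 4. The window of Slc30a10 held 3 matches, of which 2 overlapped, and those of Slc39a5 held 1 at one start and 0 at the other. A match describes the letters of the window and does not show binding.

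Reads on genes ranged from 73109 in mixed WT library A02 to 4733121 in mixed cancer library A04. Levels are given as normalized CPM, the usual CPM scale of reads relative to the library total, after scaling with edgeR's TMM factors. A single read was worth 13.1 normalized CPM in A02, 0.196 in A04 and between 0.562 and 5.25 in the other libraries, so low values were coarsest in A02 and finest in A04. CEL-Seq counts the 3′ end of transcripts. Levels were not compared between genes, apart from the ratio of Mt1 to Mt2 reads within a library. The summed level of 6 epithelial markers (Epcam, Cdh1, Krt8, Krt18, Vil1 and Cdx2) lay between 3469 and 4828 normalized CPM in 7 libraries and at 12300 in mixed WT library A06. Of 6 immune markers, Cd68 could be analysed, and it reached at most 68.8 normalized CPM, in pure cancer library A07. Of 6 stromal markers, 2 could be analysed (Col1a1 and Acta2), and their sum did not exceed 5.25 normalized CPM.

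Mt1 and Mt2, the metal-binding proteins of the group, were highest in pure WT cells. Mt1 was at 1436 and 1079 normalized CPM in pure WT libraries A01 and A05, 288 and 242 in mixed WT libraries A02 and A06, 987 and 437 in pure cancer libraries A03 and A07, and 841 and 244 in mixed cancer libraries A04 and A08. Both pure WT libraries lay above all others, and the 2 mixed WT libraries were close to each other, while the 2 libraries of each cancer group lay far apart. The order of the group means was pure WT (1257 ± 253, SD, n = 2), pure cancer (712 ± 389), mixed cancer (542 ± 422) and mixed WT cells (265 ± 32.5), and neighbours among the last 3 groups overlapped.

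Mt2 was at 516 and 474 normalized CPM in A01 and A05, 91.8 and 61.2 in A02 and A06, 168 and 53.9 in A03 and A07, and 202 and 114 in A04 and A08. The pure WT libraries stood above the other 6, which overlapped between pure cancer and both mixed groups. The mean was 495 ± 30.0 in pure WT (SD, n = 2), 158 ± 62.4 in mixed cancer, 111 ± 80.7 in pure cancer and 76.5 ± 21.6 in mixed WT cells. In each of the 4 groups, both metallothioneins were higher in the library with the lower well number, and the labels do not say what those wells share.

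**Figure D1:**
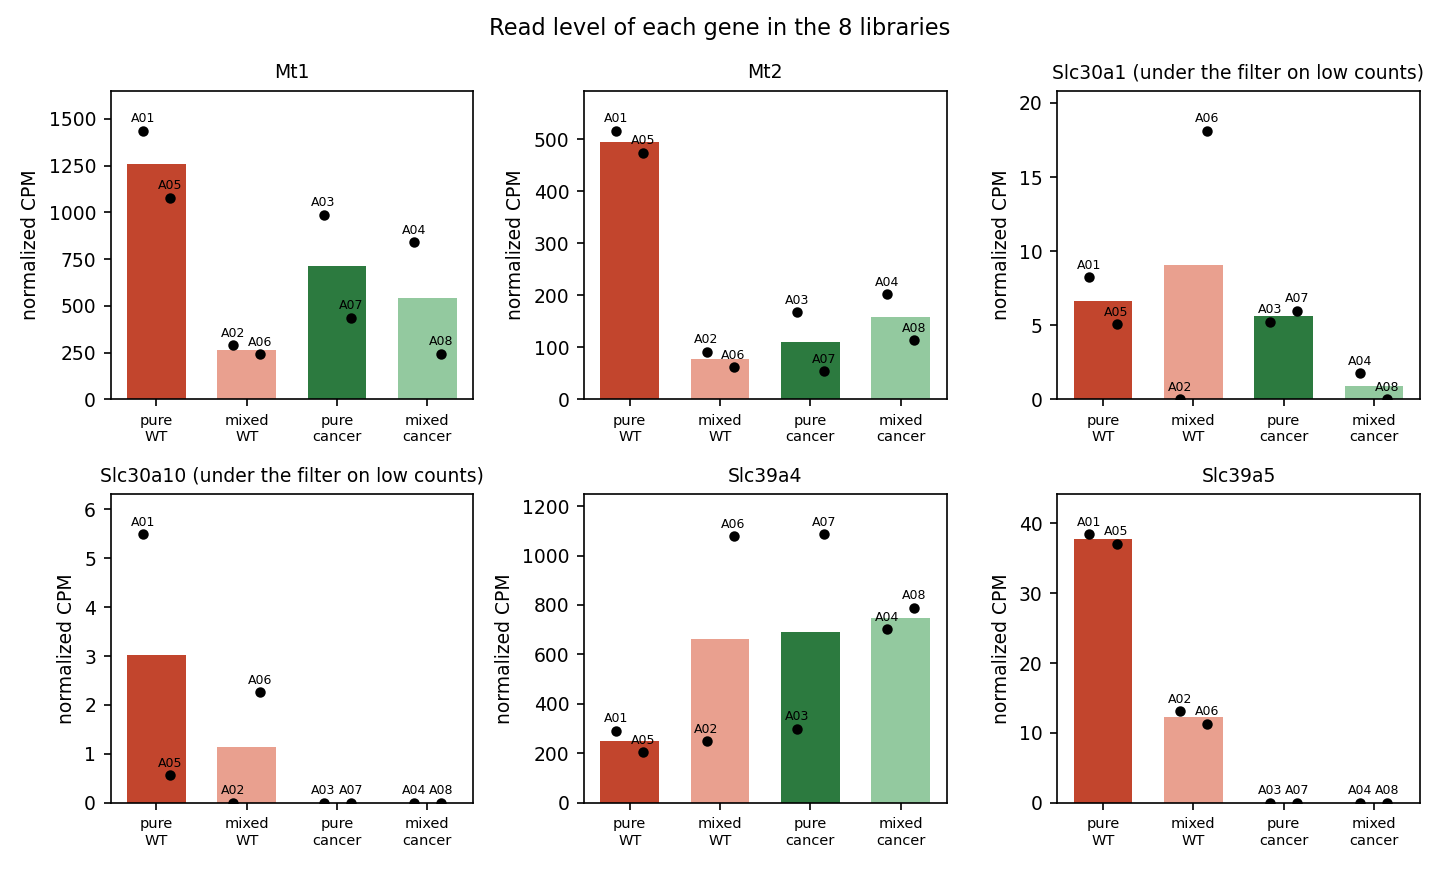
Normalized CPM (vertical axis, a separate linear scale for each gene) of the 6 genes in the 4 groups, with bars for the mean of 2 libraries and points for single libraries labelled by well. Mt1 and Mt2 are highest in pure WT libraries A01 and A05, Slc39a4 differs widely between the 2 libraries of mixed WT and of pure cancer cells, and Slc39a5 has 0 reads in the 4 cancer libraries.

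In WT cells, the lower level of metallothionein transcripts after mixing is the contrast on which the genes were chosen, so its values are a description without a test. Mt2 was 6.94-fold lower in mixed than in pure WT cells (log2 fold change −2.79, standard error (SE) 0.598, 95% interval −4.03 to −1.56). For Mt1 the level was 4.80-fold lower (log2 fold change −2.26, SE 0.546, 95% interval −3.39 to −1.13). For either gene the mixed and pure WT libraries did not overlap, which the choice of genes favours and which was not counted over all genes. Separately, edgeR called 0.741% of the 5264 tested genes in this contrast, a share of tests and not of overlap. In a bulk sample, fewer cells of a type and less RNA in each cell cannot be told apart.

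The mixed WT values of the metallothioneins rest on few reads. Mt1 had 22 and 107 reads in A02 and A06 against 1569 and 1919 in the pure WT libraries, and Mt2 had 7 and 27 reads against 564 and 843. When amplification copies were collapsed to the different molecule barcodes seen per gene, the log2 fold change between mixed and pure WT cells shrank to −0.54 for Mt1 and −1.77 for Mt2. At most 256 barcodes exist. Mt1 filled 235 and 243 of them in the pure WT libraries and all 256 in A04, so its barcode counts were near their upper limit where its reads were highest. Mt2 filled 188 and 192 in the pure WT libraries and 219 in A04, so the limit bears on its barcode counts too. In the authors' transcript estimates, which correct for barcodes drawn more than once, the log2 fold changes were −1.75 for Mt1 and −2.35 for Mt2.

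Markers of Paneth cells, which are rich in zinc, and of stem cells were also at lower summed levels in both mixed WT libraries. Enterocyte, goblet and enteroendocrine markers were not, and their sums overlapped between pure and mixed WT libraries. Enterocyte markers summed to 1372 and 741 normalized CPM in pure WT against 1534 and 1203 in mixed WT libraries. Goblet markers summed to 2959 and 3034 against 2910 and 3953, and enteroendocrine markers to 229 and 469 against 433 and 503. The summed level of 8 Paneth markers was 2639 and 4961 normalized CPM in pure WT libraries A01 and A05, against 996 and 1629 in mixed WT libraries A02 and A06. In the cancer libraries it lay between 552 and 887, mostly from Mmp7, and the defining marker Lyz1 was at or below 15.8. All 8 markers were listed. All 5 Paneth markers tested had lower estimates in mixed than in pure WT cells, from a log2 fold change of −2.55 for Pla2g2a to −0.43 for Mmp7. Of these, Pla2g2a passed (5.86-fold lower, edgeR adjusted p = 0.0494). Lyz1 (edgeR adjusted p = 0.129), Itln1 (0.234), Ang4 (0.739) and Mmp7 (0.864) did not, and the libraries of Ang4 and of Mmp7 overlapped. The 5 stem cell markers summed to 418 and 579 normalized CPM in A01 and A05 and to 78.7 and 195 in A02 and A06. In cancer libraries that sum lay between 89.2 and 420 normalized CPM. Among them Axin2 (7.29-fold lower in mixed WT cells, edgeR adjusted p = 0.116), Ascl2 (3.64-fold lower, adjusted p = 0.253) and Smoc2 (2.66-fold lower, adjusted p = 0.462) did not pass the test. Lgr5 differed less (1.37-fold lower, edgeR adjusted p = 0.935). Its libraries overlapped, at 26.5 and 67.5 normalized CPM in A01 and A05 against 0 and 49.8 in A02 and A06. The part of these cells in the metallothionein levels was not tested.

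In cancer cells, the question was whether mixing with WT cells moved the same genes. Neither metallothionein passed the test. Mt1 stood at a log2 fold change of −0.35 in mixed against pure cancer cells (SE 0.507, 95% interval −1.40 to 0.70, edgeR adjusted p = 1), and its libraries overlapped between the groups. Mt2 showed a log2 fold change of 0.61 (SE 0.549, 95% interval −0.53 to 1.74, edgeR adjusted p = 1), with overlapping libraries too. None of the 4 genes of the group that entered the test was called (0), and edgeR called 0% of all 5264 tested genes here, with 54 higher and 15 lower at an unadjusted p under 0.05 and 0 calls by DESeq2. Slc39a5 entered the test but had 0 reads in both cancer groups. The intervals of the other genes include changes of either sign.

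Cancer and WT cells were compared within pure and within mixed cultures, and these comparisons use the same pure and mixed WT libraries as the contrast on which the genes were chosen. That choice favours high values in the pure WT and low values in the mixed WT libraries. The p-values of Mt2 are therefore tilted toward a lower level in pure cancer cells, with every kind of count, and describe these libraries only. Mt2 was 4.62-fold lower in pure cancer than in pure WT cells (log2 fold change −2.21, SE 0.552, 95% interval −3.35 to −1.07, edgeR adjusted p = 0.0102). It did not pass the test without pure cancer library A07 (log2 fold change −1.66, edgeR adjusted p = 0.138), and it passed with barcode counts (−1.44, edgeR adjusted p = 0.0135) and with transcript estimates (−1.95, edgeR adjusted p = 0.0043). Mt1 had a log2 fold change of −0.83 (SE 0.508, 95% interval −1.88 to 0.22, edgeR adjusted p = 0.387), although its 2 pure cancer libraries lay below both pure WT libraries. Of all tested genes, 9.95% were called in this comparison, and of the 6 genes described here Mt2 and Slc39a5 were called, both lower in cancer cells. The call of Slc39a5 follows from its passing the filter through pure WT cells and is described with that gene.

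In mixed cultures neither metallothionein passed the test between cancer and WT cells. Mt1 stood at a log2 fold change of 1.08 in mixed cancer against mixed WT cells (SE 0.534, 95% interval −0.02 to 2.19, edgeR adjusted p = 0.316), and mixed cancer library A08 lay within the range of the mixed WT libraries. Without A08 the log2 fold change was 1.73 (edgeR adjusted p = 0.0323), and without A04 it was −0.14. Mt2 showed a log2 fold change of 1.20 (SE 0.594, 95% interval −0.03 to 2.42, edgeR adjusted p = 0.319), and both of its mixed cancer libraries lay above both mixed WT libraries. The choice of genes favours low values in the mixed WT libraries. Both metallothionein estimates here, and the test without A08, are therefore tilted toward higher levels in mixed cancer cells. They describe these libraries only. Of all tested genes, 6.42% were called in this comparison.

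**Figure D2:**
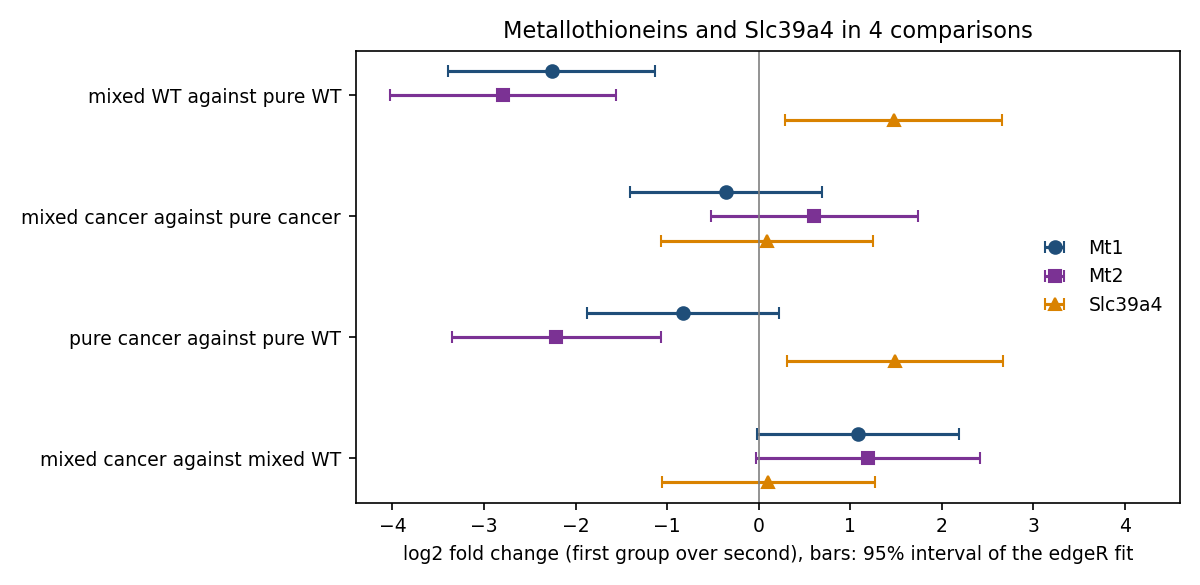
Log2 fold change (horizontal axis) of Mt1, Mt2 and Slc39a4 in 4 comparisons, with points for the edgeR estimate and bars for its 95% interval. In mixed against pure WT cells, the contrast that chose the genes, Mt1 (−2.26) and Mt2 (−2.79) are shown without a test. All 3 intervals of mixed against pure cancer cells include 0. For these genes the changes in WT and in cancer cells were not tested against each other.

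The balance between the 2 metallothioneins can be read within a library, where depth and scaling cancel. Pure WT libraries A01 and A05 had 2.78 and 2.28 Mt1 reads for each Mt2 read (95% exact binomial intervals 2.53 to 3.07 and 2.10 to 2.47). Pure cancer libraries A03 and A07 had 5.88 and 8.11 (intervals 4.02 to 8.84 and 4.96 to 14.1), so Mt2 was the scarcer partner to a greater extent in both pure cancer libraries than in both pure WT libraries. The choice of genes favours high Mt2, and with it a low ratio, in the pure WT libraries, so this difference is a description only. The mixed WT libraries A02 and A06 were at 3.14 (1.30 to 8.71) and 3.96 (2.58 to 6.29). The interval of A06 lay above that of A05 and overlapped those of A01 and both pure cancer libraries, and the interval of A02 overlapped all 4. The mixed cancer libraries differed from each other, with 4.16 in A04 (3.88 to 4.45) and 2.14 in A08 (1.26 to 3.72). These intervals cover counting error only, and reads that are amplification copies are not independent molecules. Over the 8 libraries the log2 levels of Mt1 and Mt2 had a Pearson r of 0.842, given as a description because the libraries share their groups and differ in depth.

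**Figure D3:**
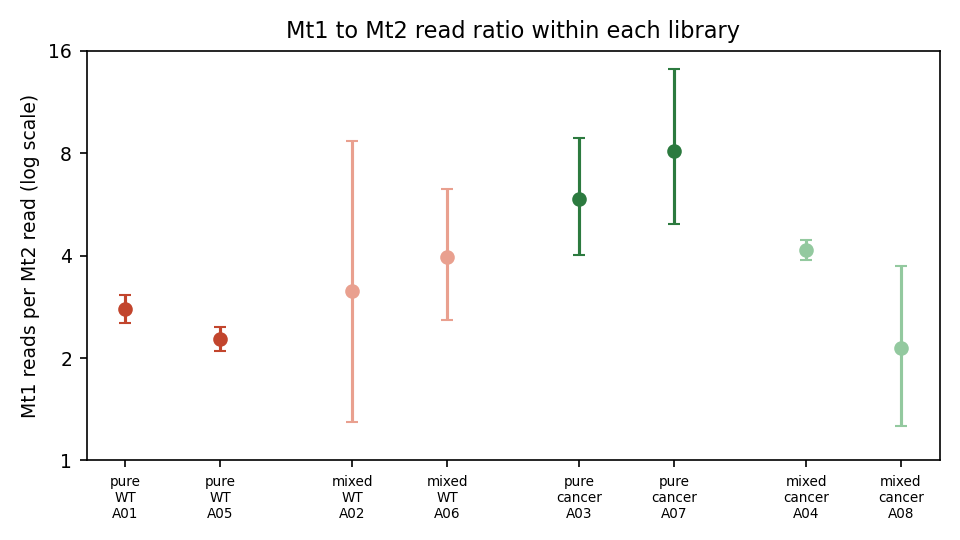
Mt1 reads per Mt2 read (vertical axis, log scale) in each of the 8 libraries, with points for the ratio and bars for its 95% exact binomial interval. The pure cancer libraries (5.88 and 8.11) lie above the pure WT libraries (2.78 and 2.28), in which the choice of genes favours a low ratio. The mixed cancer libraries A04 and A08 lie apart from each other.

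Slc39a4 (minus strand of chromosome 15, positions 76612383 to 76617384) encodes the importer that takes up dietary zinc at the apical side of intestinal cells, and its loss in humans causes acrodermatitis enteropathica. Its level was 292 and 206 normalized CPM in pure WT (A01, A05), 249 and 1078 in mixed WT (A02, A06), 299 and 1086 in pure cancer (A03, A07), and 703 and 789 in mixed cancer libraries (A04, A08). Mixed WT and pure cancer cells each had 1 low and 1 high library, a spread within the group as wide as the distance between groups. The mean was lowest in pure WT cells (249 ± 61.0, SD, n = 2), while mixed WT cells (664 ± 586) and both pure cancer (693 ± 557) and mixed cancer cells (746 ± 60.5) could not be ordered beyond their spread.

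Among WT cells, Slc39a4 had a log2 fold change of 1.47 in mixed against pure cells (SE 0.574, 95% interval 0.29 to 2.66, no test). This value rested on A06: without that library it was −0.09. In A06 the summed epithelial markers were also higher than in the other libraries, led by Krt8 at 8498 normalized CPM, and their part in the Slc39a4 value was not tested. Pure cancer against pure WT cells gave a log2 fold change of 1.49 (SE 0.572, 95% interval 0.31 to 2.67, edgeR adjusted p = 0.112). This value rested on A07, since without that library it was 0.17 (edgeR adjusted p = 0.921). The comparison passed the threshold without pure cancer library A03 (edgeR adjusted p = 0.00199), without A02 (0.0332), A06 (0.0422) or A08 (0.0308), and with transcript estimates (0.0379), and it did not pass without A01 (0.0978), A04 (0.0778) or A05 (0.301). Mixed cancer cells differed little in the fit from pure cancer cells (log2 fold change 0.09, SE 0.562, 95% interval −1.07 to 1.25, edgeR adjusted p = 1) and from mixed WT cells (0.11, SE 0.564, 95% interval −1.06 to 1.27, edgeR adjusted p = 0.965), with intervals that allow more than a doubling in either direction.

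Slc39a5 (minus strand of chromosome 10, positions 128395931 to 128401229), an importer placed at the basolateral side of enterocytes, had reads only in WT libraries. A01 and A05 held 42 and 66 of its reads (38.4 and 37.1 normalized CPM), mixed WT libraries A02 and A06 held 1 and 5 (13.1 and 11.3 normalized CPM), and there were 0 reads in all 4 cancer libraries. The pure WT libraries agreed closely, and both mixed WT libraries lay below them with very few reads. The log2 fold change from pure to mixed WT cells came to −1.67 (SE 1.09, no test).

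A count of 0 still allows up to 5.72 normalized CPM in pure cancer cells and up to 0.566 in mixed ones, the level of 3 reads over the pooled libraries of each group. Against these limits, Slc39a5 was at least 6.58-fold lower in pure cancer than in pure WT cells and at least 20.5-fold lower in mixed cancer than in mixed WT cells. These bounds leave out the counting error of the WT reads, and the second rests on A04. In A08 alone, 3 reads make 15.6 normalized CPM, above the 11.6 of the pooled mixed WT libraries, so no bound remained without A04. edgeR called the gene in both comparisons (adjusted p = 0.0210 and 0.0184), but it had passed the filter only through the WT libraries in which it was high, so these calls are a description and give no support to a difference. In pure cultures the call did not hold without A01, A05 or A07 (edgeR adjusted p = 0.213, 0.273 and 0.139) or with DESeq2 (adjusted p = 0.0553). In mixed cultures, where the WT side has 6 reads in all, it did not hold without A01, A04, A05 or A06 (edgeR adjusted p = 0.133, 0.557, 0.165 and 0.163).

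The lack of Slc39a5 reads in cancer cells went together with lower summed levels of markers of all 4 differentiated cell types examined, though not of every marker. The summed level of 9 listed enterocyte markers, of 10 sought, was between 741 and 1534 normalized CPM in the 4 WT libraries and between 0 and 31.5 in the 4 cancer libraries. Of these, Sis and Slc5a1 had 0 reads in every cancer library, and Fabp1, Fabp2, Apoa1 and Apoa4 had reads only in cancer library A04, at most 0.783 normalized CPM. Enteroendocrine markers summed to between 229 and 503 normalized CPM in WT and to at most 1.37 in cancer libraries. Goblet markers summed to between 2910 and 3953 normalized CPM in WT and to between 456 and 1113 in cancer libraries, where nearly all came from Spink4, and Tff3 was at most 15.6 there. Paneth markers other than Mmp7 were low in cancer cells too, with Lyz1 119-fold and Ang4 239-fold lower in pure cancer than in pure WT cells (edgeR adjusted p = 2.2e-06 and 3.8e-06). Mmp7 went the other way. It was 6.4-fold higher in cancer than in WT cells in pure cultures and 9.02-fold higher in mixed ones (edgeR adjusted p = 0.000595 and 0.000362). Spink4 was not lower in pure cancer than in pure WT cells (1.5-fold higher, edgeR adjusted p = 0.483). The part of these cells in the Slc39a5 level was not tested. The gene overlaps Ankrd52 on the opposite strand, and the use of strand in counting is not given in the sources used here.

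The exporters were close to the limit of detection and stayed under the filter on low counts in all 4 comparisons. Slc30a1, which exports zinc from the cell and is itself a target of Mtf1, had 9 reads each in A01 and A05 (8.24 and 5.06 normalized CPM), 0 and 8 in mixed WT (0 and 18.1), 1 and 2 in pure cancer (5.25 and 5.99), and 9 and 0 in mixed cancer libraries (1.76 and 0). The 0 of A02 is uninformative, since a single read there is worth 13.1 normalized CPM. Pooled over libraries, the level in mixed WT cells was 2.47 times that in pure WT cells (95% counting interval 0.928 to 5.96), and the level in mixed cancer cells was 0.110 times that in mixed WT cells (0.0376 to 0.327). The second interval lies below 1 but covers counting error only, the 8 mixed WT reads all come from A06, and without the filter the gene was not called (edgeR adjusted p = 0.481).

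Slc30a10, a transporter best known for exporting manganese, had 6 reads in A01, 1 in A05, 0 in A02, 1 in A06 and 0 in the 4 cancer libraries. No difference was detectable at this depth, because the pure WT level was below the limit that 0 reads allow in pure cancer cells. Slc30a1 (chromosome 1, 191906767 to 191913247) and Slc30a10 (chromosome 1, 185454848 to 185468762) each overlap an antisense gene that is also in the table, 1700034H15Rik and Gm2061.

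To place the 6 genes, 33 other genes of zinc and copper handling were followed, covering the remaining metallothioneins, zinc transporters, Mtf1, and copper transporters and chaperones. Of these, 30 were listed and 15 passed the filter. None of the 15 was called in any of the 4 comparisons (edgeR, 0 in each). Beside 10 higher and 5 lower estimates, the median log2 fold change in mixed against pure WT cells was 0.20, where it was −0.10 over all tested genes, and 0 of the 15 had an unadjusted p under 0.05 (9.67% of all tested genes had one). In mixed against pure cancer cells 6 were higher and 9 lower, with a median of −0.13 (0.03 over all genes) and 0 at an unadjusted p under 0.05 (1.31% of all). In mixed cancer against mixed WT cells 9 were higher and 6 lower, with a median of 0.20 (0.12 over all genes) and again 0 at an unadjusted p under 0.05 (16.4% of all).

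The change with mixing was also compared between WT and cancer cells by an interaction term. It was called for 4 of the 5264 tested genes and for 0 of these 15, with a smallest edgeR adjusted p of 0.755. The 6 genes themselves were left out of this test because the contrast in WT cells chose them.

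Pure cancer against pure WT cells gave 7 higher and 8 lower estimates, with a median of −0.04 (−0.05 over all genes), and 2 genes had an unadjusted p under 0.05, which is 13.3% of the 15 against 20.5% of all tested genes. These 2 genes are described for their values and are not set apart from other genes by the count. Slc30a9 had 7.32 and 8.43 normalized CPM in the pure WT libraries, 13.1 and 9.06 in mixed WT, 42.0 and 44.9 in pure cancer, and 22.7 and 46.7 in mixed cancer libraries. All cancer libraries lay above all WT libraries, and the log2 fold change in pure cultures was 2.44 (SE 0.848, edgeR adjusted p = 0.0725). These values rest on few reads: 8 and 15 in A01 and A05, 1 and 4 in A02 and A06, and 8, 15 and 9 in A03, A07 and A08. In A02, 3 reads would make 39.3 normalized CPM, above the level of A04, so the separation is not firm. Slc39a11, a zinc importer, had 114 and 94.4 normalized CPM in the pure WT libraries, 78.7 and 122 in mixed WT, 10.5 and 38.9 in pure cancer, and 47.4 and 46.7 in mixed cancer libraries. All cancer libraries lay below all WT libraries, with a log2 fold change of −1.97 in pure cultures (SE 0.689, edgeR adjusted p = 0.0759). Libraries A02, A03 and A08 held 6, 2 and 9 reads of Slc39a11. Slc39a11 was called with barcode counts (edgeR adjusted p = 0.00252) and with transcript estimates (0.00775), and Slc30a9 with transcript estimates (0.0497) and when only the 4 libraries compared were fitted (0.0390). Without A02 both passed (edgeR adjusted p = 0.0423 for Slc30a9 and 0.0348 for Slc39a11), as did Slc39a11 without A06 (0.0411).

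**Figure D4:**
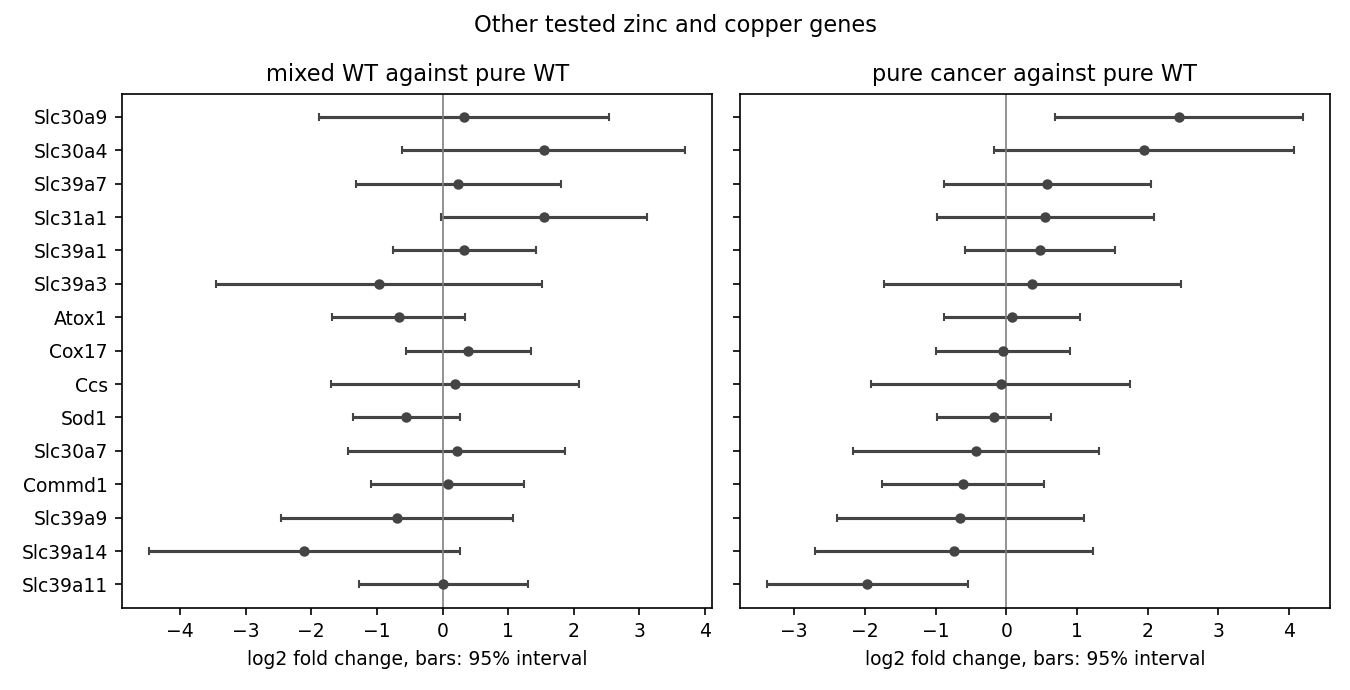
Log2 fold change (horizontal axis) of the 15 tested zinc and copper genes in mixed against pure WT cells and in pure cancer against pure WT cells, with points for the edgeR estimate and bars for its 95% interval. None was called in either comparison, and in pure cancer cells Slc30a9 (2.44) and Slc39a11 (−1.97) lie farthest from 0.

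The metal sensor Mtf1 and the metallothionein Mt4 gave few reads. For Mtf1, A01 and A05 held 3 and 9 reads, with 0 and 4 in mixed WT, 0 and 0 in pure cancer, and 30 and 0 in mixed cancer libraries, where the 30 reads of A04 correspond to 5.87 normalized CPM. Its level was too low for a comparison. For Mt4 there were 5 reads in A01, 3 in A05, 1 in A04 and 0 in the others, and Mt3 was not analysed here.

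The genes whose levels followed the metallothioneins most closely over the 8 libraries are named here as a description. None of them was on the list of 33 other metal genes, but only 15 of that list passed the filter, so few could appear. Among 2745 tested genes with a mean of at least 50 reads, the log2 level of Mt1 had its highest Pearson r with Cinp (0.968), Slc25a5 (0.960), Tmem97 (0.944), Polr2l (0.943) and Nop56 (0.941). Slc25a5 encodes an ADP/ATP carrier of the inner mitochondrial membrane, Polr2l a subunit of RNA polymerases, and Nop56 a core protein of the small nucleolar ribonucleoproteins. For Mt2 the highest values were with Fkbp4 (0.966), Siva1 (0.954), Rpa2 (0.937), Psma7 (0.925) and Cdk2ap1 (0.918). Fkbp4 is a co-chaperone of Hsp90, Rpa2 a subunit of the single-strand DNA binding complex of replication, and Psma7 a subunit of the proteasome. The 8 libraries share their groups, differ in depth and include the WT libraries on which the genes were chosen, so these values describe likeness only.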

How the data were processed

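Sorted pure and mixed WT and cancer cells were sequenced in bulk with CEL-Seq, 2 libraries in each of 4 groups. Per the study's methods, the second read of a pair was placed on RefSeq transcripts of mm10 by BWA, reads with several equal matches were dropped, and the rest were counted with featureCounts. The authors deposited read counts, barcode counts and expected counts of transcripts (estimated from barcodes and rounded here), without normalization. A table of the authors' DESeq2 1.22.2 comparison of mixed with pure WT cells was not used.

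The 6 genes, the list of 33 metal genes, the markers and the alternatives were chosen with earlier results of these data known. Read counts of all 8 libraries entered one quasi-likelihood fit (edgeR 4.0.16, R 4.3.3) with TMM factors and filterByExpr at a minimum count of 10. This kept 5264 of 13420 genes, and 2 entries that are not mouse genes were left out (at most 5.25e-05% of reads). Genes were called at a Benjamini-Hochberg adjusted p under 0.05. Standard errors were the log2 fold change divided by the root of the F statistic. The code was tested on simulated data. Alternatives were barcode or transcript counts, RLE factors, a minimum count of 50 or no filter, DESeq2 1.42.0, a fit of the 4 libraries compared, and each library left out. Named genes were the 6, Mtf1, Mt3, Mt4, called metal genes, and the 5 genes most like Mt1 and Mt2. Slc30a9 and Slc39a11 were named after their values were seen. Libraries are named by well, and no pairs were formed. Depth ranged from 73109 to 4733121 reads, and intervals on counts cover counting error only. One allele of the cancer organoids is not reported here.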

Additional observations from a re-analysis of the deposited data

How the results depend on the processing

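All fold changes and counts were recomputed under 15 alternatives. Of 221 recomputed fold changes of the 6 genes, 184 kept their direction and their side of the threshold or, without a test, stayed within the spread of the main value, and 12 of those with a test changed sign. None of those 12 was called (edgeR adjusted p between 0.654 and 1). Of those without a test, Slc39a4 in mixed against pure WT cells changed sign without A06 (−0.09). In mixed cancer against mixed WT cells, Mt1 was −0.20 with barcode counts and between −0.14 and 1.73 when a library was left out, and Slc39a4 was −0.41 with barcode counts, −0.34 with transcript counts and between −0.54 and 1.64 with a library left out. In mixed against pure cancer cells, Mt1 was 0.32 with transcript counts and between −1.50 and 0.36 with a library left out, and Slc39a4 was −0.40 with barcode counts, −0.23 with transcript counts and between −0.55 and 1.37. In pure cancer against pure WT cells, Mt1 was 0.55 with barcode counts. Among the left-out libraries, the signs turned without A04 and A02 in the first comparison (Mt1 and Slc39a4) and without A03 (both genes) or A08 (Mt1) in the second.

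Of the 6 genes, 2 were called in pure cancer against pure WT cells, 1 with a minimum count of 50, 1 with DESeq2, and 0 to 3 when a library was left out. In mixed cancer against mixed WT cells 1 was called, 0 with a minimum count of 50 (which removes Slc39a5), 0 with only the 4 libraries compared, and 0 to 2 with a library left out. Of the metal genes, 0 were called in pure cancer against pure WT cells, 1 with barcode counts, 2 with transcript counts, 1 with the 4 libraries compared, and 0 to 2 with a library left out (2 without A02, 1 without A06). Of the 6 genes, 4 entered the main test. Over all tested genes in pure cancer against pure WT cells, 232 of 1543 were called with a minimum count of 50. DESeq2 called 467 of 7434, barcode counts gave 620 of 4268, transcript counts 644 of 4233 and the 4 libraries compared 640 of 5673. Mixed cancer against mixed WT cells gave 151 of 1543 with that minimum count and 226 of 3766 with the 4 libraries compared. Apart from the construction named for Slc39a5, the cause of the shifts between settings was not tested. With a library left out, the lone library of its group is assumed to vary like the others. No paired analysis was possible because the labels give the libraries of different groups no shared number and do not say which wells belong together. Depth limits Slc30a1, Slc30a10 and the 6 mixed WT reads of Slc39a5.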
